A study of Sus scrofa with 6 samples.

Results

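The interleukins are secreted proteins by which leukocytes and tissue cells signal to each other, and each acts through a receptor built from chains that are often shared. The genes described here are those whose symbol in the deposited tables is IL, with or without a hyphen, followed by a digit, leaving out IL7, IL7R and IL15. By name alone the rule found 36 genes among the 4122 of the tables. RNA was sequenced from lymph node, spleen and thymus of pigs at 3 months of age, with 1 library per tissue and genotype and 6 in all. The knockout animals carried a biallelic RAG2 knockout, and the controls were their wild-type littermates. The labels do not say how many animals gave tissue, whether the tissues of 1 genotype came from 1 animal, or which mutation the knockout alleles carry, although the series title speaks of a single amino acid deletion. Differences between genotypes therefore rest on single libraries, without a check against replicates, and no p-value is given.

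Interleukins fall into families by the receptor they use. IL-12 and IL-23 share the ligand chain IL12B (p40) and the receptor chain IL12RB1, and differ in the second receptor chain, IL12RB2 for IL-12 and IL23RA for IL-23. IL-13 signals through IL13RA1 paired with IL4R, while IL13RA2 and, for IL-1, IL1R2 bind ligand without signalling and are known as decoy receptors. IL8 is a chemokine that draws neutrophils. RAG2 is part of the recombinase that assembles antigen receptor genes, so the knockout concerns the T and B cells that make and read many of these signals.

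Values are the authors' FPKM, which correct fragments for transcript length and library depth, or whole fragments recovered from their scaled count tables. Where 2 values of a tissue stand together, the wild-type library comes first. A gene counts as measured in a tissue with at least 1 FPKM in 1 of its 2 libraries. After adding 1 FPKM to both libraries, a log2 quotient of knockout to wild type of 1 or more is a higher call and one of -1 or less a lower call. Folds come from scaled fragments, with 95% Clopper-Pearson intervals that cover counting error alone and not the difference between animals. Levels set across tissues are given as CPM, fragments scaled to a common total over the listed genes. In whole tissue, fewer cells of a type and less RNA per cell cannot be told apart.

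Fragments assigned to the listed genes numbered 1922562 to 2541723 per library. The labels of the tissues fitted their known genes: the thymic chemokine CCL25 stood at 1423 and 414 FPKM in thymus against at most 1.04 FPKM in the other tissues, and CCL21 at 2438 and 1754 FPKM in lymph node. The transcript of RAG2 stood at 606 and 1072 FPKM in thymus, which does not check the genotype, since a transcript can be made from an altered gene. Several cell type marker lists differed between the genotypes. Of all measured genes 10.3% were called lower in lymph node, 10% in spleen and 10.9% in thymus. Of 14 measured T-cell markers 13 were lower in the knockout lymph node, 9 in spleen and 10 in thymus, and none was higher. Their summed level was 1986 and 244 FPKM in lymph node, 660 and 306 FPKM in spleen, and 10349 and 4616 FPKM in thymus. All 6 measured B-cell markers were lower in lymph node (summed 1700 and 4.96 FPKM) and spleen (573 and 8.62 FPKM). In thymus 4 of the 6 were lower, while their summed level was 160 and 186 FPKM. CD79A, which was not called, alone made up 120 and 172 FPKM of this sum.

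Of the 36 members, 22 reached 10 fragments in at least 1 library and 11 reached it in every library: IL6ST, IL13RA1, IL33, IL2RG, IL6R, IL27RA, IL16, IL18, IL4R, IL12RB1 and IL12RB2. In a given library 16 to 22 members reached it. Another 6 had fragments but fewer than 10 in every library: IL12A, IL-5, IL2, IL21, IL4 and IL1B2. The remaining 8, which are IL6, a second entry IL-6, IL9, IL10RB, IL17A, IL27, IL28B and IL2RA, were listed at 0 in all 6 libraries. Of all genes 774 were listed at 0 throughout, among them the housekeeping gene HPRT1, so a 0 here does not show that a gene was silent. The helper T-cell ligands IL2, IL4, IL-5, IL9, IL17A and IL21 thus lay under 10 fragments in every library. IL13, another such ligand, reached 10 in the knockout lymph node alone.

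**Figure D1:**
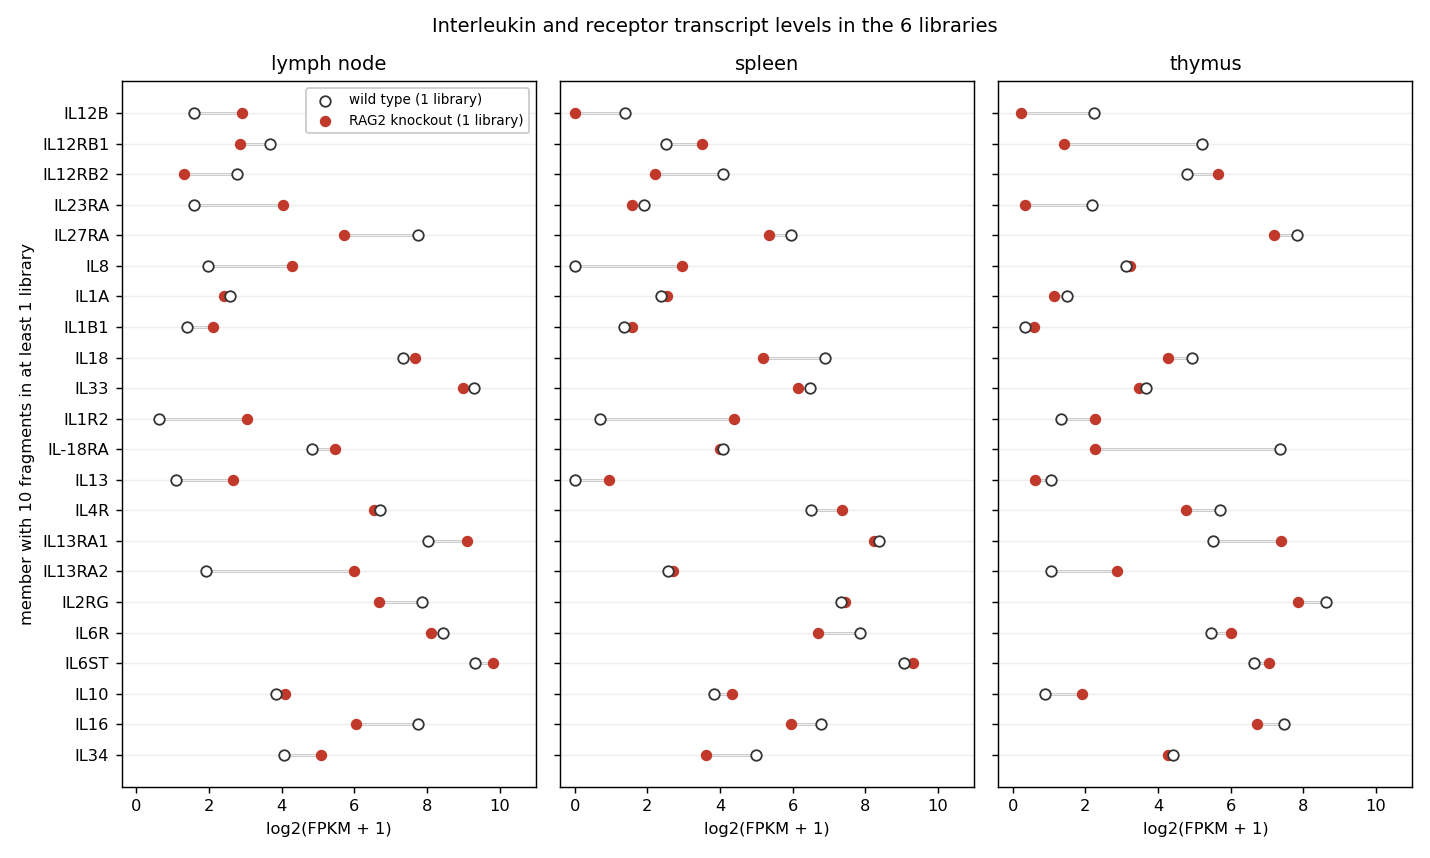
Level of each of the 22 members with 10 fragments in at least 1 library, as log2(FPKM + 1), in lymph node, spleen and thymus, with 1 open point for the wild-type and 1 filled point for the knockout library. IL6ST and IL13RA1 lie to the right in lymph node and spleen, and the widest gaps between genotypes are those of IL13RA2 in lymph node, IL1R2 in spleen and IL-18RA and IL12RB1 in thymus.

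Of 26 members measured in lymph node, 8 were called higher in the knockout and 5 lower, where 15.3% and 10.3% of all 2910 measured genes were called in these directions. In spleen 2 of 23 members were higher and 6 lower, against 8.88% and 10% of 2849 genes. In thymus 3 of 25 were higher and 7 lower, against 15.2% and 10.9% of 2908 genes. The shares called higher in spleen and thymus thus lay near or under those of all genes. Requiring also a counting interval without equal levels left 7 higher and 4 lower in lymph node (background 13.1% and 8.87%), 2 and 5 in spleen (7.51% and 8.42%), and 2 and 4 in thymus (13.5% and 8.53%). Low genes pass the minimum through the library where they are high, and some calls rest on a handful of fragments. With at least 10 fragments in 1 library, 7 members were higher and 4 lower of 22 in lymph node (background 13.8% and 9.52%), 2 and 4 of 19 in spleen (8.31% and 8.61%), and 3 and 4 of 19 in thymus (14.5% and 8.62%). The median log2 ratio of the measured members was 0.29 in lymph node, -0.15 in spleen and -0.63 in thymus, where that of all measured genes was -0.0046, -0.016 and -4.7e-05. For members with at least 10 fragments in 1 library the medians were 0.42, -0.087 and -0.21.

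**Figure D2:**
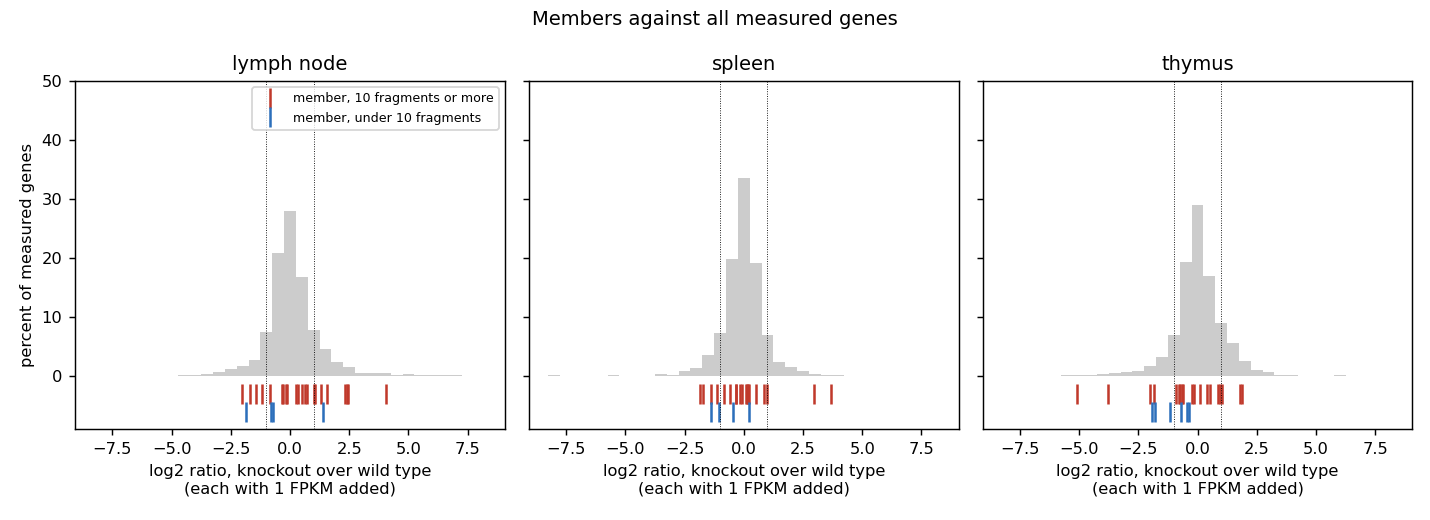
Histogram of log2 ratios (knockout over wild type, 1 FPKM added to each) over all measured genes of each tissue in percent, with the members as ticks under it (upper row: 10 fragments or more in 1 library; lower row: fewer). Dotted lines mark the size needed for a call; the members spread to both sides in each tissue, with 2 far to the left in thymus.

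The IL-12 and IL-23 group divided by tissue. The shared ligand chain IL12B (chromosome 16, 64143268 to 64158929 in Sscrofa11.1) stood at 2.02 and 6.49 FPKM in lymph node, 1.61 and 0 FPKM in spleen, and 3.68 and 0.171 FPKM in thymus. The knockout lymph node was thus the highest of the 6 libraries and the other 2 knockout libraries were the lowest. In fragments these were 11 and 37 in lymph node (3.22-fold higher, interval 1.61 to 6.99), 9 and 0 in spleen and 21 and 1 in thymus (21.5-fold lower, 3.46 to 890). The spleen level was 3.50-fold lower when the 0 is counted as 3 fragments per library, and the counting interval of that difference began at 2.30-fold. Between the wild-type tissues the counting intervals of IL12B overlapped, at 5.72, 4.32 and 8.26 CPM in lymph node, spleen and thymus. IL12A, the other chain of IL-12, had at most 7 fragments in a library and was not called.

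The second chain of the IL-23 receptor, IL23RA (IL23R in current nomenclature; chromosome 6, 145337765 to 145401909), moved in the same 2 directions. It stood at 1.98 and 15.4 FPKM in lymph node, 2.75 and 1.99 FPKM in spleen, and 3.49 and 0.262 FPKM in thymus. In lymph node it was 7.79-fold higher in the knockout (4.46 to 14.7, from 14 to 114 fragments), and in thymus 13.3-fold lower (3.33 to 116, from 26 to 2). The spleen libraries, with 20 and 17 fragments, had a ratio of 0.728 with an interval of 0.358 to 1.46. Among the wild-type libraries IL23RA hardly varied, at 7.28, 9.59 and 10.2 CPM in lymph node, spleen and thymus, with overlapping counting intervals, while the knockout libraries ran from 0.834 CPM in thymus to 56.4 CPM in lymph node.

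IL12RB2, the chain particular to the IL-12 receptor, was lower in the knockout lymph node, where IL12B and IL23RA were higher, and lower in spleen. It stood at 5.81 and 1.48 FPKM in lymph node, 15.8 and 3.65 FPKM in spleen, and 26.8 and 49.6 FPKM in thymus. It was called lower in the knockout lymph node (3.92-fold, 2.04 to 8.14) and spleen (4.33-fold, 2.94 to 6.52). In thymus its ratio was 1.85 (1.57 to 2.19), with a log2 ratio of 0.87, short of a call, and of 1.001 by counts scaled to their total. IL12RB2 and IL23RA lie 45.4 kb apart on chromosome 6 with 1 protein-coding gene between them, and in the knockout lymph node and thymus their ratios stood on opposite sides of 1.

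IL12RB1, the chain common to both receptors, stood at 11.7 and 6.14 FPKM in lymph node, 4.76 and 10.3 FPKM in spleen, and 36.3 and 1.67 FPKM in thymus. The wild-type thymus was the highest library and the knockout thymus the lowest. The thymus difference was 21.7-fold (12.7 to 40.1, from 296 to 14 fragments), with a log2 ratio of -3.80. Lymph node and spleen had ratios of 0.526 (0.365 to 0.750) and 2.16 (1.47 to 3.24), neither of which reached a call. The spleen log2 ratio of 0.97 passed the threshold on every count scale tried, at 1.03 to 1.08.

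The balance of the 3 receptor chains within a library therefore differed widely. In thymus the FPKM of IL12RB2 was 0.738 times that of IL12RB1 in wild type and 29.6 times in the knockout, a change of 40.2-fold in fragments (22.9 to 70.3, a normal approximation on the log scale). In spleen the same quotient went from 3.32 to 0.355, a 9.36-fold decrease (5.49 to 16.0). In lymph node IL23RA stood at 0.340 times IL12RB2 in wild type and 10.4 times in the knockout, a change of 30.5-fold (13.1 to 71.1). In the knockout thymus IL23RA was at 0.00529 times IL12RB2. Whole tissue does not show whether 2 chains were made by the same cells.

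**Figure D3:**
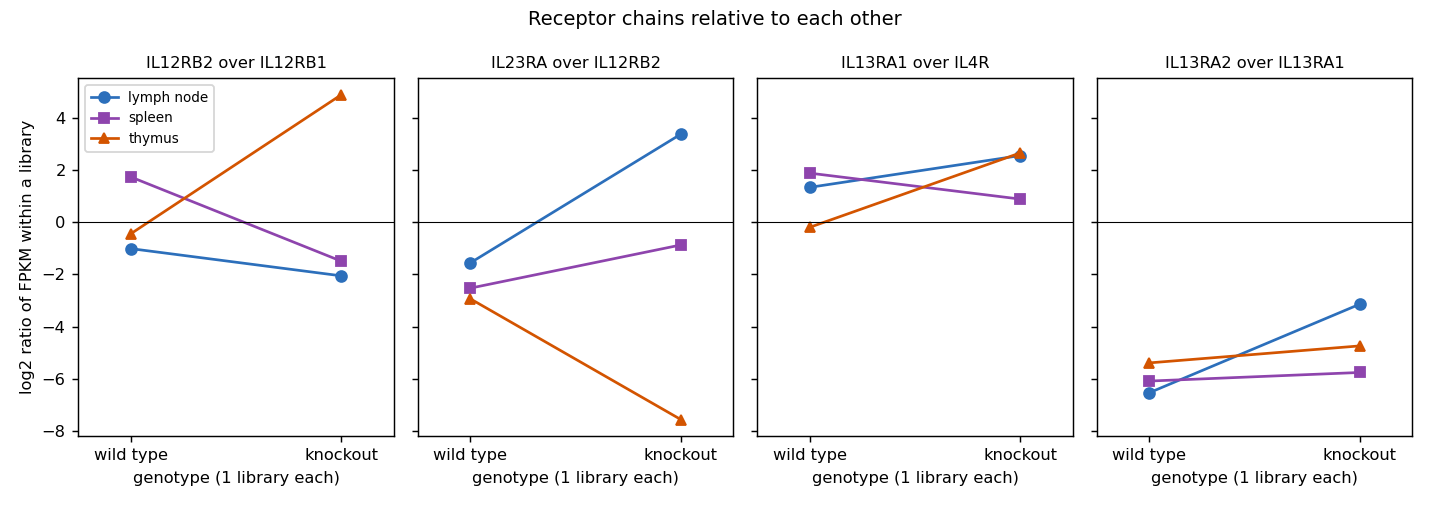
Ratio of the FPKM of 2 receptor chains within each library, on a log2 scale, for wild type and knockout in lymph node, spleen and thymus (1 library per point). The line of IL12RB2 over IL12RB1 climbs in thymus and drops in the other 2 tissues, and that of IL23RA over IL12RB2 does the reverse in lymph node and thymus.

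IL27RA, the receptor chain for IL-27, was among the most abundant members. It stood at 212 and 51.9 FPKM in lymph node, 61.1 and 40.1 FPKM in spleen, and 226 and 146 FPKM in thymus. The knockout library was the lower in each tissue, and the lymph node difference was called (4.09-fold, 3.65 to 4.59). Wild-type lymph node and thymus held 3.67 and 3.10 times the IL27RA level of wild-type spleen in CPM. Its ligand chain IL27 was listed at 0 throughout.

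STAT4, which carries the IL-12 signal to the nucleus, stood at 46.4 and 17.6 FPKM in lymph node, 23.0 and 17.5 FPKM in spleen, and 13.0 and 2.02 FPKM in thymus. It was called lower in lymph node (-1.35) and thymus (-2.21). Of the genes listed for IL-12 and IL-23 helper programmes, 2 of 11 measured were higher and 2 lower in lymph node, 3 and 2 of 9 in spleen, and 3 and 4 of 11 in thymus. The shares of all measured genes called higher and lower in these 3 tissues were 15.3% and 10.3%, 8.88% and 10%, and 15.2% and 10.9%. The chemokine receptor CXCR6 was higher in all 3, at 9.70 and 55.6, 12.2 and 51.8, and 2.90 and 10.6 FPKM. In lymph node the regulatory T-cell factor FOXP3 had 26 and 0 fragments. In spleen the transcription factor BATF (17.2 and 58.1 FPKM) and interferon gamma, IFNG (2 and 12 fragments), were higher. In thymus GATA3, the factor of type 2 cells, was lower (73.1 and 33.9 FPKM). Beside these values stand the T-cell markers above and 6 measured innate lymphoid markers, of which 1 was higher and 2 lower in lymph node, 4 were lower in spleen and 3 in thymus (summed 1181 and 413, 634 and 329, and 442 and 144 FPKM). LTB alone made up 968 and 112, 327 and 44.1, and 286 and 20.6 FPKM of these sums. In lymph node KIT, ID2 and AHR had more FPKM in the knockout, and GATA3 and LTA less. NCR1 of that list was at 0 in every library. Of 7 measured dendritic cell markers 5 were lower and 2 higher in thymus (summed 934 and 327 FPKM), 2 were lower in lymph node (627 and 431 FPKM), and 2 were higher and 3 lower in spleen (334 and 490 FPKM). PCD1E, the listed CD1E gene, alone made up 724 and 174 FPKM of the thymus sum. CCL22 had 40 and 0 fragments in thymus. In spleen CCL22 and CCL17 each had 2 and 0 fragments, so their lower calls there rest on 2 fragments and their intervals included equal levels. The part of these cells in the IL-12 and IL-23 values was not tested.

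IL8 (CXCL8 in current nomenclature; chromosome 8, 69932646 to 69935861) was higher in the knockout in both peripheral organs. It stood at 2.88 and 18.4 FPKM in lymph node, 0 and 6.72 FPKM in spleen, and 7.73 and 8.28 FPKM in thymus. The wild-type spleen had no fragment, the knockout lymph node was the highest library, and the 2 thymus libraries lay close together. In lymph node the difference was 6.44-fold (3.40 to 13.4, from 11 to 74 fragments). In spleen, with 0 and 31 fragments, it was 8.85-fold when the 0 is counted as 3 fragments. The counting interval of the spleen difference began at 6.78-fold. In thymus the ratio was 1.07 (0.639 to 1.80).

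Neutrophil markers were higher in each knockout tissue, in 5 of 6 measured cases in lymph node (1 lower), 7 of 7 in spleen and 6 of 7 in thymus. Their summed level was 44.8 and 599 FPKM in lymph node, 45.0 and 1765 FPKM in spleen, and 130 and 2193 FPKM in thymus. RETN was at 0 in wild-type lymph node and thymus, and TREM1 in wild-type thymus. Of all measured genes 15.3% were called higher in lymph node, 8.88% in spleen and 15.2% in thymus. IL8 in thymus had 31 and 34 fragments. The part of neutrophils in the IL8 values of lymph node, spleen and thymus was not tested.

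Of the genes listed for the IL-8 axis and neutrophil recruitment, 3 of 11 measured were higher and 1 lower in lymph node, 3 and 1 of 8 in spleen, and 5 and 3 of 11 in thymus. Among all measured genes 15.3% and 10.3%, 8.88% and 10%, and 15.2% and 10.9% were called in these directions. The pentraxin PTX3 was higher in all 3 tissues, at 3.20 and 64.0, 2.54 and 8.48, and 0.763 and 29.8 FPKM. CXCL2, another neutrophil chemokine, was higher in lymph node (8.44 and 43.4 FPKM). SELPLG and the integrin chain ITGAL were higher in spleen, at 247 and 592 and at 98.2 and 224 FPKM. In thymus the chemokine AMCF-II had 16 and 0 fragments.

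In the IL-1 family the decoy receptor IL1R2 differed most in the periphery. It stood at 0.549 and 7.29 FPKM in lymph node, 0.616 and 19.9 FPKM in spleen, and 1.51 and 3.83 FPKM in thymus. Each knockout library was above every wild-type library. In spleen the difference was 32.5-fold (8.70 to 274, from 2 to 76 fragments). In lymph node it was 13.4-fold with a wide interval (2.04 to 566, from 1 to 14 fragments). In thymus, with 5 and 13 fragments, the log2 ratio of 0.94 was short of a call and the interval of 0.849 to 9.09 included equal levels. It passed the threshold on the 3 count scales tried (1.02 to 1.11) and with a pseudocount of 0.1 FPKM (1.29). Neutrophils are known to carry this receptor, and the neutrophil markers given above were higher in the same 3 knockout libraries. Their part in the IL1R2 values was not tested.

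The IL-1 ligands differed little or were near the floor. IL1A, one of the forms of IL-1, stood at 4.94 and 4.29 FPKM in lymph node, 4.18 and 4.81 FPKM in spleen, and 1.84 and 1.20 FPKM in thymus, and was called nowhere. IL1B1 had 6 and 13, 6 and 9, and 1 and 2 fragments. The second pig IL-1 beta gene, IL1B2, had 1 fragment in wild-type thymus and none elsewhere, and the sources used here do not say how fragments shared by the 2 copies were counted. In the knockout lymph node the decoy IL1R2 stood at 7.29 FPKM and IL1B1 at 3.31 FPKM, on 14 and 13 fragments.

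IL33, an alarm signal held in the nucleus of stromal and endothelial cells, set the tissues apart more than the genotypes. It stood at 621 and 509 FPKM in lymph node, 88.1 and 69.4 FPKM in spleen, and 11.8 and 10.1 FPKM in thymus, and was called in none. In CPM, wild-type lymph node held 7.46 times as much IL33 as spleen (6.48 to 8.61) and 66.3 times as much as thymus (46.5 to 97.9). In the knockout these were 7.94 and 58.9 times. Lymph node against thymus thus spanned a far wider range than knockout against wild type, where the ratios were 0.825, 0.796 and 0.850.

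IL18, a partner of IL-12 in driving interferon gamma, stood at 160 and 201 FPKM in lymph node, 117 and 35.3 FPKM in spleen, and 29.7 and 18.4 FPKM in thymus. It was called lower in the knockout spleen (3.25-fold, 2.42 to 4.44), whereas lymph node had a ratio of 1.27 (1.07 to 1.52). Its receptor chain IL-18RA (IL18R1; chromosome 3, 51803383 to 51844758) stood at 27.4 and 43.0 FPKM in lymph node, 15.9 and 14.9 FPKM in spleen, and 162 and 3.80 FPKM in thymus. The wild-type thymus stood far above and the knockout thymus below the other 4 libraries. The thymus difference of 42.5-fold (16.3 to 158, from 166 to 4 fragments) gave the lowest log2 ratio of any member in any tissue, -5.08. Summed T-cell markers in the same thymus libraries were 10349 and 4616 FPKM, and their part in the IL-18RA value was not tested.

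Of 14 measured genes of IL-1 receptor and NF-kB signalling, 1 was higher in lymph node, 1 in spleen and 1 in thymus, with 2 lower in thymus. Over all measured genes 15.3%, 8.88% and 15.2% were higher in these tissues, and 10.9% were lower in thymus. The inflammasome sensor NLRP3 stood at 47.9 and 98.7 FPKM in lymph node and the adaptor MYD88 at 76.8 and 163 FPKM in spleen. In thymus CASP1, the protease that matures IL-1 beta and IL-18, was at 3.20 and 16.2 FPKM (5.08-fold higher, 2.55 to 11.2). The inhibitor NFKBIA and the subunit NFKB1 were lower there, at 705 and 332 and at 23.7 and 10.8 FPKM.

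The IL-13 receptor chains IL13RA1 and IL13RA2 were higher in the knockout lymph node and thymus and called in neither direction in spleen. IL13RA1, the signalling chain, stood at 259 and 545 FPKM in lymph node, 334 and 301 FPKM in spleen, and 44.8 and 167 FPKM in thymus. It was 2.11-fold higher in lymph node (1.94 to 2.30) and 3.73-fold higher in thymus (3.11 to 4.49). In spleen the ratio was 0.910 (0.837 to 0.989). The wild-type thymus had been the lowest library by a wide margin.

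IL13RA2, the decoy, stood at 2.80 and 61.8 FPKM in lymph node, 4.91 and 5.57 FPKM in spleen, and 1.07 and 6.25 FPKM in thymus. The knockout lymph node stood apart from the other 5 libraries. Its difference of 22.2-fold (11.9 to 46.9, from 10 to 232 fragments) gave a log2 ratio of 4.05. In thymus the decoy was 5.86-fold higher (2.01 to 23.2, from 4 to 24 fragments). IL13RA1 and IL13RA2 both lie on chromosome X, at 97300960 to 97353754 and 94402665 to 94455609. The decoy's FPKM was 0.0108 times that of IL13RA1 in wild-type lymph node and 0.113 times in the knockout, an increase of 10.5-fold (5.55 to 19.9).

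Marker lists of several other cell types were also compared in the same libraries. Over all measured genes 15.3% were called higher and 10.3% lower in lymph node, 8.88% and 10% in spleen, and 15.2% and 10.9% in thymus. Macrophage and monocyte markers were higher in 4 of 12 measured cases in lymph node, in 4 in spleen (2 lower) and in 9 in thymus (1 lower). Their summed level was 10768 and 16368, 30846 and 24336, and 1256 and 3659 FPKM, with CD163 at 0 in every library and FCGR1A at 0 in wild-type lymph node and spleen. Adipocyte markers were higher in 10 of 10 measured cases in lymph node (summed 157 and 9433 FPKM) and in 8 of 9 in thymus (498 and 1827 FPKM), and in spleen 2 of 8 were higher and 2 lower (288 and 260 FPKM). In wild-type lymph node PCK1 and DGAT2 were at 0. Fibroblast markers had 3 of 7 higher and 1 lower in lymph node, 6 of 7 lower in spleen, and 1 each way in thymus (summed 4863 and 6945, 5048 and 1873, and 1885 and 2166 FPKM). Blood endothelial markers were higher in 3 of 6 cases in lymph node, none in spleen and 5 of 6 in thymus (1496 and 2686, 679 and 864, and 123 and 289 FPKM). The part of these cells in the IL13RA1 and IL13RA2 values was not tested.

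IL4R, the chain that IL-4 and IL-13 receptors share, was called nowhere, with 103 and 92.6 FPKM in lymph node, 90.7 and 163 FPKM in spleen, and 51.1 and 26.5 FPKM in thymus. Its ratio by fragments was 1.80 in spleen (1.64 to 1.99) and 0.517 in thymus (0.431 to 0.619), so that in thymus IL13RA1 went from 0.876 to 6.32 times IL4R. The type 2 ligands were close to the floor. IL13 had 2 and 10 fragments in lymph node, a call (1.57) whose interval of 1.02 to 44.9 nearly included equal levels, and at most 2 elsewhere. IL4 had 1 fragment in all, in wild-type spleen, and IL-5 at most 4 in a library. The lower calls of IL4 in spleen and IL-5 in thymus rest on 1 and 3 fragments against 0. IL-5, IL13 and IL4 lie in 1 cluster on chromosome 2.

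IL2RG, the common gamma chain through which IL-2, IL-4, IL-9 and IL-21 among others signal, stood at 232 and 101 FPKM in lymph node, 161 and 172 FPKM in spleen, and 394 and 230 FPKM in thymus. It was called lower in the knockout lymph node (2.28-fold, 1.98 to 2.62). In spleen its ratio was 1.08 (0.951 to 1.22) although 9 of 14 T-cell and 6 of 6 B-cell markers were lower there. In that spleen 3 of 6 measured natural killer cell markers were higher and none lower, against 8.88% and 10% of all measured genes. The markers summed to 293 and 1344 FPKM, with NCR1 at 0 in both libraries, and their part was not tested. IL2 and IL21 had at most 3 fragments in a library and lie 100.2 kb apart on chromosome 8. Their calls, IL2 higher and IL21 lower in lymph node and both lower in thymus, each rest on 1 to 3 fragments against 0.

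IL6ST, the signalling chain gp130 of the whole IL-6 family, had the most fragments of any member in 5 of the 6 libraries, wild-type thymus being led by IL27RA. By FPKM, which corrects for length, IL2RG led both thymus libraries, at 394 and 230. IL6ST stood at 637 and 903 FPKM in lymph node, 535 and 633 FPKM in spleen, and 99.5 and 131 FPKM in thymus, and was called nowhere. The knockout library was the higher in each tissue, with ratios of 1.42 (1.37 to 1.47), 1.19 (1.14 to 1.23) and 1.31 (1.20 to 1.44). IL6R, the chain that binds IL-6, stood at 346 and 273 FPKM in lymph node, 229 and 103 FPKM in spleen, and 42.8 and 62.8 FPKM in thymus. It was called lower in the knockout spleen (2.27-fold, 1.84 to 2.82). Thymus had 46 and 92 fragments (1.95-fold, 1.36 to 2.85), a wider difference than in FPKM, with a log2 ratio of 0.54 by FPKM and 1.04 by counts scaled to their total. IL6ST relative to IL6R went from 2.34 to 6.16 in spleen.

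Of 24 listed acute-phase genes that IL-6 is known to induce in liver and other tissues, 15 had an entry. Among those measured, 7 of 8 were higher in lymph node, 5 of 9 in spleen (2 lower) and 6 of 7 in thymus. Of all measured genes 15.3%, 8.88% and 15.2% were called higher there. The other entries lay under the minimum in both libraries, and low genes pass it through the library where they are high. Both entries for IL-6 itself were listed at 0, and a part of IL-6 in these values was not tested. The copper carrier CP had 3 and 491 fragments in lymph node. Haptoglobin, HP, stood at 3.54 and 36.5 FPKM in lymph node and 51.7 and 1020 FPKM in thymus. The protease inhibitor TIMP1 stood at 65.0 and 920 FPKM in spleen and 19.7 and 56.0 FPKM in thymus, and the ferritin chains FTH1 and FTL in spleen at 5273 and 29040 and at 10766 and 36050 FPKM. SOCS3, the feedback inhibitor of IL-6 signalling, was listed at 0 in all 6 libraries.

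Of 15 measured genes of the JAK, STAT and SOCS list, by which most members signal, 1 was lower in lymph node, 2 were higher in spleen, and 1 was higher and 1 lower in thymus. The matching shares of all measured genes were 10.3% in lymph node, 8.88% in spleen, and 15.2% and 10.9% in thymus. The gene called lower in lymph node and in thymus was STAT4, given above. JAK1 in spleen had 2 and 13 fragments. JAK2 in thymus was called on 62.6 and 575 FPKM, but its fragments, 615 and 685, were nearly equal (1.09, 0.974 to 1.21), and the call comes from the FPKM calculation. SOCS1 in spleen had 5 and 15 fragments. Among type I cytokine receptors named otherwise, GHR, the growth hormone receptor, was higher in lymph node (22.5 and 198 FPKM) and thymus (5.23 and 46.7 FPKM). KIT, which stood in the same list but is a receptor of another type (a tyrosine kinase), was higher in lymph node (45.5 and 104 FPKM) and lower in spleen (148 and 50.2 FPKM). The 4 IL-6 family genes outside the IL names that the tables hold, LIF among them, summed to at most 4.93 FPKM in any library.

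IL10, a suppressor of inflammation, stood at 13.4 and 16.2 FPKM in lymph node, 13.4 and 19.2 FPKM in spleen, and 0.852 and 2.77 FPKM in thymus. Its call in thymus (1.03) rests on 3 and 10 fragments, with an interval of 0.838 to 18.4. IL16, released by lymphocytes and known to attract CD4+ cells, stood at 213 and 65.0 FPKM in lymph node, 110 and 61.2 FPKM in spleen, and 177 and 105 FPKM in thymus. As with IL27RA, the knockout library was the lower in each tissue and the lymph node difference was called (3.27-fold, 2.93 to 3.66). IL34, a ligand of the macrophage growth factor receptor, had 9 and 20 fragments in lymph node, 18 and 8 in spleen, and 12 and 11 in thymus, and was called lower in spleen (2.63-fold, 1.09 to 6.98). In lymph node it was not called, but passed the threshold with a pseudocount of 0.1 FPKM (1.04).

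**Figure D4:**
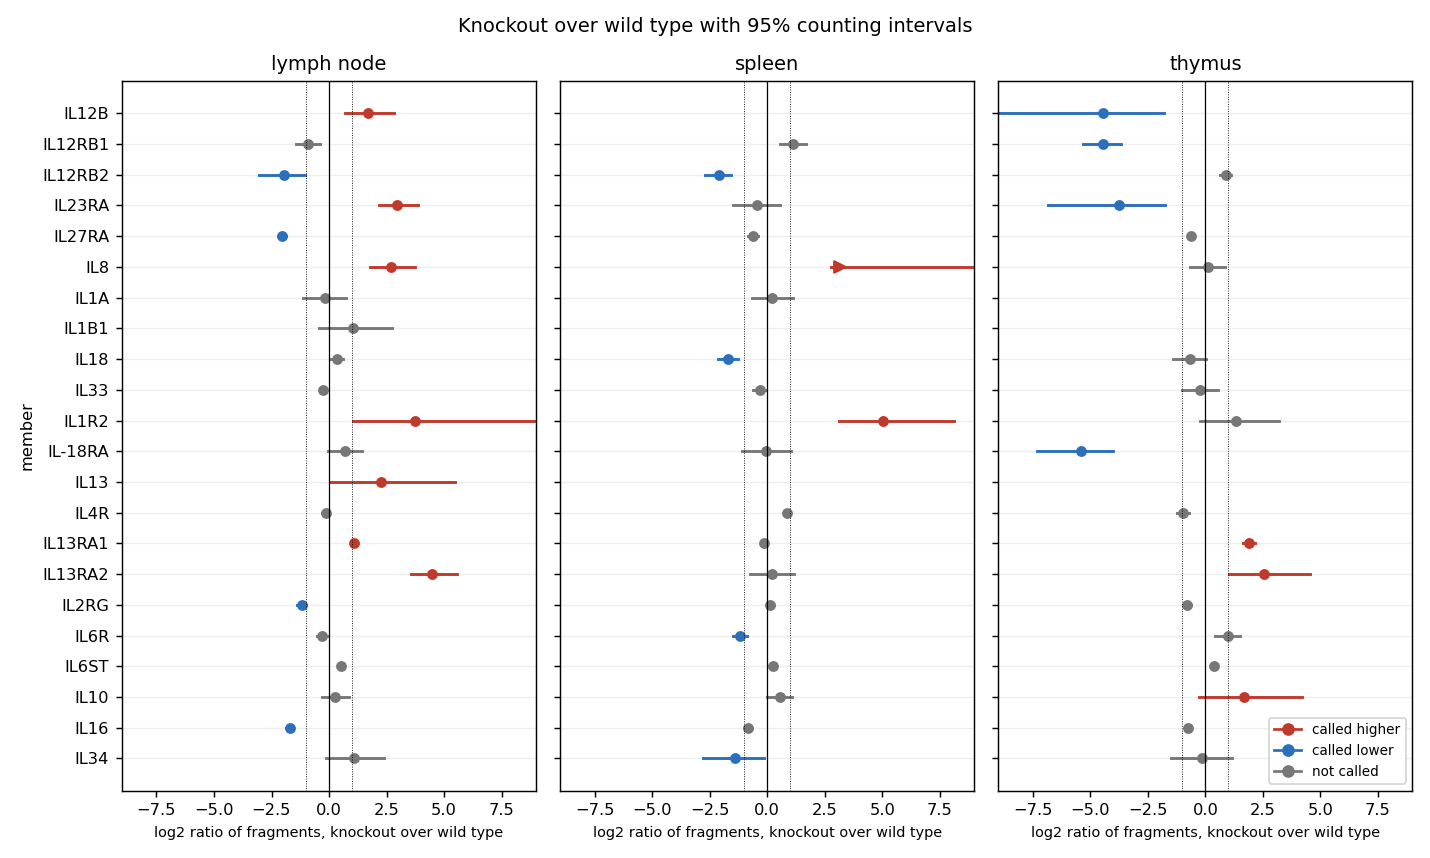
Log2 ratio of scaled fragments, knockout over wild type, with 95% Clopper-Pearson intervals, for members with 10 fragments in 1 library of the tissue; intervals are cut at the axis ends, colours mark the FPKM call, dotted lines a doubling or halving, and the triangle the lower bound of IL8 in spleen. IL12B and IL23RA lie right of 0 in lymph node and left of it in thymus, and IL13RA1 and IL13RA2 lie right of 0 in lymph node and thymus.

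Counting intervals excluded equal levels in opposite directions in 2 tissues for 8 members: IL12B, IL12RB1, IL12RB2, IL13RA1, IL18, IL23RA, IL4R and IL6R. Genes with many fragments can meet this rule on small differences, as IL13RA1 did in spleen (0.910, 0.837 to 0.989). Calls in opposite directions, with 10 fragments in 1 library of each tissue, came for IL12B and IL23RA. Neither count was made over all genes, so neither sets the members apart from other genes. With a pseudocount of 5 FPKM the calls of IL12B in lymph node (0.71), spleen (-0.40) and thymus (-0.75), IL12RB2 in lymph node (-0.74), IL13 in lymph node (0.75), IL23RA in thymus (-0.69), IL13RA2 in thymus (0.89) and IL10 in thymus (0.41) fell short of the threshold.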

How the data were processed

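Total RNA from 3 tissues of RAG2 knockout and wild-type pigs was made into libraries with a stranded total RNA kit, per the labels' protocols. FPKM values were calculated by the authors in 1 table per tissue; FastQC 0.11.9, Trimmomatic 0.39, STAR 2.7.9a, Cufflinks 2.2.1 and the build Sscrofa11.1 were used, per the submitters' processing notes. The sources used here give no annotation, strand setting or treatment of shared fragments. The deposited count tables hold estimated counts multiplied by 1 factor per library. Division by that factor gave whole fragments within 0.02 for 98.5 to 99.1% of values above 0, and values were rounded. Totals cover listed genes, not the library.

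Symbols were matched to RefSeq for Sscrofa11.1 for coordinates (counted from 1). Of the members 34 matched, 4 through an older name. Calls, intervals (95%) and the floor of 3 fragments per library are described above, and intervals cover counting error only. Levels compared between tissues are CPM over the listed genes, since each tissue table was normalised separately. The calculations were tested on simulated counts. A fit of genotype across the tissues was not made, since the labels do not say whether tissues share animals.

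Members and gene lists were chosen with earlier results of these data known. Named members were IL8, IL12B, IL23RA, those called with 10 fragments in 1 library of that tissue and the 10 most abundant; of each pathway list up to 3 called genes per tissue with 10 fragments were eligible. Some eligible genes are not reported here. HPRT1, CCL25, CCL21, IL1A, IL1B1, LIF, SOCS3 and receptors near the threshold were named after their values were seen. Python 3.11.15, numpy 2.4.6, pandas 2.3.3, scipy 1.17.1, matplotlib 3.10.9, and for scale factors edgeR 4.0.16 and DESeq2 1.42.0 in R 4.3.3 were used. Alternatives were pseudocounts of 0.1 and 5 FPKM, other minimums, 3 count scales, centring, a threshold of 2 and the counting interval.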

Additional observations from a re-analysis of the deposited data

Results flagged for a closer look

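Of the members, 2 were called in opposite directions in 2 tissues, each with at least 10 fragments in 1 library of both. IL12B had a log2 ratio of knockout over wild type of 1.31 in lymph node and -2.00 in thymus. IL23RA had 2.46 in lymph node and -1.83 in thymus. With 1 library per tissue and genotype the difference between the tissues was not tested. How many of all genes were called in opposite directions was not counted.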

How the results depend on the processing

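Each tissue and genotype had 1 library, so depth sets only the counting error, and members under 10 fragments cannot be compared. No paired analysis was possible because each group held 1 library and the labels give no numbers that pair animals. In lymph node 8 members were higher and 5 lower; a pseudocount of 5 FPKM gave 5 and 3, and a threshold of 2 gave 4 and 1. In spleen 6 were lower, and 0 with a threshold of 2. In thymus 3 were higher and 7 lower. A pseudocount of 5 FPKM gave 1 and 2 there, a threshold of 2 gave 0 and 2, a minimum of 5 FPKM gave 2 lower, and requiring 10 fragments or the counting interval each gave 4 lower. Counts scaled to their total gave 6 higher in thymus, where this scale moved the median of all genes by 0.116. The other counts stayed within 1.5 times. No median of the members changed sign, but without an expression minimum those of lymph node and spleen were 0 and that of thymus -0.076. No called value of a named member changed sign under another pseudocount, count scale or centring. Under the pseudocount of 5 FPKM 12 of the 59 measured values of named members, called or not, left their counting interval, and 1 did with counts scaled to their total.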

Other observations

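Genes whose pattern over the 6 libraries was most like that of a member were sought by Pearson's correlation of log2(FPKM + 1), as a description over 6 points that share tissue and genotype. For IL8 the closest were GADD45G (r = 0.986), MECR (0.981) and SLC1A3 (0.929). GADD45G stood at 34.4 and 79.1 FPKM in lymph node, 10.9 and 44.1 in spleen and 53.2 and 44.7 in thymus, wild type first. For IL12B they were FAM177A1 (0.954), MGST3 (0.951) and DGAT (0.942). For IL23RA they were SMYD2 (0.955), HSD17B7 (0.939) and CDIPT (0.938). They were taken from 2877 genes, and none of these genes was picked for its function.

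Members differed in how much the tissues shaped them. In wild type IL6ST, IL13RA1 and IL18 were 8.06, 7.30 and 6.82 times as high in lymph node as in thymus in CPM, and IL10 19.8 times, on 45 and 3 fragments. IL2RG and IL-18RA went the other way, at 0.742 and 0.215 times. In the knockout IL-18RA was 13.3 times as high in lymph node as in thymus (4.87 to 51.1), on 45 and 4 fragments. All members together took 6562 and 6923 CPM in lymph node, 4211 and 4328 in spleen, and 2436 and 2106 in thymus.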
